A study of Caenorhabditis elegans with 6 samples.

Results

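The cadherin genes cdh-3, cdh-7 and cdh-10 were 3 of the 5792 genes in a table of RNA levels from whole Caenorhabditis elegans at L4, the last larval stage. They were picked by name from the table's gene name column, with their values in these samples already known, so their levels are given here as a description and without a test. The table compares 3 samples of TGQ animals with 3 samples of WT animals. The labels give TGQ only as a strain name, and give SJ4100 as the strain of the WT samples, a name known for a line with a GFP reporter under the hsp-6 promoter. The sources used here state neither how TGQ was derived nor whether it carries that reporter. Worms of each group fed on the bacterial strain OP50 at 20 °C from hatching on, were washed off whole and frozen, and polyadenylated RNA was sequenced. The labels do not say whether replicates were separate cultures, so p-values here reflect sample-to-sample spread only, and this may be technical. The series title places the comparison in a study of inherited mitochondrial DNA increase, the mitochondrial unfolded protein response and aging.

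Cadherins are membrane proteins whose outer part is a chain of repeated domains that fold around calcium and bind cadherins of neighbouring cells. The classical cadherin of C. elegans, HMR-1, ties the actin cytoskeleton of epithelial cells together through catenins. CDH-3 belongs with the very long cadherins related to Fat of Drosophila. A cdh-3 reporter is known from epithelial cells, among them seam cells, vulval cells and the anchor cell of the gonad that breaches the basement membrane above the vulva, and loss of cdh-3 disturbs the shaping of the tail tip. The annotation columns of the table give all 3 genes a cadherin domain (Pfam) and the process of homophilic cell adhesion (GO). Only cdh-3 of the 3 also carries laminin G domains and the terms for basement membrane disassembly and male tail tip morphogenesis, and only cdh-7 carries a cadherin prodomain. The closest Swiss-Prot entries listed there are C. elegans CDH-3 itself for cdh-3, mouse Fat3 for cdh-7 and human FAT1 for cdh-10, and no further role is listed for cdh-7 or cdh-10.

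The 3 genes lie apart from each other in the genome (WBcel235 annotation, Ensembl release 115; the authors' build: not given in the sources used here). Gene cdh-3 (WBGene00000395) spans 7741229 to 7754448 on the minus strand of chromosome III, with 22 exons and a coding sequence for 3361 residues. Gene cdh-7 (WBGene00000399) spans 14843229 to 14850905 on the plus strand of chromosome II, with 10 exons and 1364 residues. Gene cdh-10 (WBGene00000402) spans 2436498 to 2463369 on the minus strand of chromosome IV, with 18 exons and 1775 residues. Each has 1 annotated transcript, of 10252 bases for cdh-3, 4424 for cdh-7 and 5402 for cdh-10. A protein-coding gene on the same strand, C45G7.13, lies inside the span of cdh-10 at 2441318 to 2451333 and shares 0 exon bases with it.

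Across the series, the summed values of the table's genes ran from 282800 to 293900 per TGQ sample and from 327800 to 349500 per WT sample. The unit of the values is not named, so the depth is unknown and levels are not compared between genes. In log2(value + 1), samples correlated at 0.989 to 0.993 within TGQ, 0.987 to 0.995 within WT and 0.87 to 0.919 between the groups. On the second principal component, which held 6.6% of the variance, WT replicates 1 and 2 stood at opposite ends, at 15.6 and -12.8, with the other samples between -4.99 and 7.13. Every gene of the table had passed the authors' own test (largest adjusted p of 0.0499 in the authors' deposited table), so a difference between the groups is the rule in it. With limma on log2(value + 1), 4998 of the 5540 genes tested (90.2%) were called at an adjusted p under 0.05, 45.6% higher and 44.6% lower in TGQ.

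Values of cdh-3, cdh-7 and cdh-10 were all higher in TGQ than in WT, each by slightly more than 4 times in the ratio of group means. Gene cdh-10 had values of 29.31, 26.93 and 23.24 in TGQ replicates 1, 2 and 3, against 5.61, 5.02 and 6.57 in WT replicates 1, 2 and 3. The lowest TGQ sample stood at 3.54 times the highest WT sample, so the groups were wide apart. Groups that did not overlap, with TGQ higher, were found for 44% of all genes tested. Group means were 26.5 ± 3.06 in TGQ and 5.73 ± 0.782 in WT (SD, n = 3 each), a ratio of 4.62. On the log2(value + 1) scale the difference was 2.03 with a standard error of 0.14 from limma, and the log2 fold change in the authors' deposited table was 2.08.

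Gene cdh-7 had values of 18.25, 18.52 and 16.31 in TGQ replicates 1 to 3, against 3.13, 3.7 and 4.56 in WT replicates 1 to 3. All TGQ samples again lay above all WT samples, as for 44% of all genes tested. The lowest TGQ sample was at 3.58 times the highest WT value. The means were 17.7 ± 1.21 in TGQ and 3.8 ± 0.72 in WT (SD, n = 3 each), a ratio of 4.66 and a log2(value + 1) difference of 1.97 (SE 0.14). The authors' deposited table gives a log2 fold change of 2.08 here too.

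Gene cdh-3 was near the bottom of the measured range, with values of 1.88, 1.89 and 1.51 in TGQ replicates 1 to 3, against 0.54, 0.34 and 0.4 in WT replicates 1 to 3. The lowest TGQ sample was at 2.8 times the highest WT sample. The means were 1.76 ± 0.217 in TGQ and 0.427 ± 0.103 in WT (SD, n = 3 each), a ratio of 4.13. Because 1 was added to every value before the logarithm, the difference on that scale was only 0.95 (SE 0.12), and it was 1.83 when 0.1 was added. In the authors' deposited table its log2 fold change was 1.93. All 3 genes passed the filter on low values, which asked for 3 or more samples at a value of 1 or more, and cdh-3 passed it through its TGQ samples alone.

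**Figure D1:**
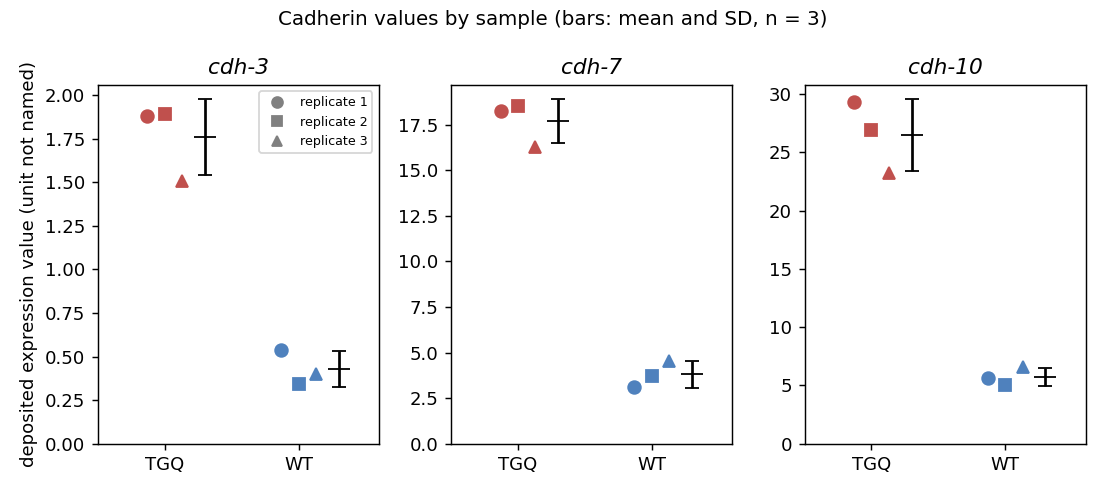
Deposited expression values (unit not named; each vertical axis starts at 0) of cdh-3, cdh-7 and cdh-10 in each TGQ sample (red) and WT sample (blue), with the mean and SD of 3 samples at the right of each group. In each panel all TGQ points lie above all WT points, as for 44% of all genes tested. The TGQ means are 1.76, 17.7 and 26.5 against WT means of 0.427, 3.8 and 5.73.

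In the ratio of group means, the 3 genes were close to each other and among the highest of the table. Of the 5540 genes tested, 54 had a larger ratio than cdh-7, 55 a larger ratio than cdh-10 and 74 a larger ratio than cdh-3. The log2 ratios of cdh-7 and cdh-10 differed by 0.01, and that of cdh-3 lay 0.16 below that of cdh-10. Within single samples the value of cdh-10 was 1.61, 1.45 and 1.43 times that of cdh-7 in TGQ replicates 1 to 3, and 1.79, 1.36 and 1.44 times in WT replicates 1 to 3. The size of this quotient is not a comparison of levels, since gene length and the unnamed unit enter it, and it was compared between samples only. It overlapped between the groups although each gene alone did not. The quotient of cdh-10 to cdh-3 ran from 14.3 to 15.6 in TGQ and from 10.4 to 16.4 in WT, with WT replicate 1 at the low end.

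The lowest TGQ sample was shared by the 3 genes, while the order of the other samples differed between them. TGQ replicate 3 was the lowest TGQ sample for all 3 genes. WT replicate 2 was the lowest WT sample for cdh-3 and cdh-10, while WT replicate 1 was the lowest for cdh-7. Over all genes tested, TGQ replicate 3 was the lowest TGQ sample for 51% and WT replicate 2 the lowest WT sample for 56.4%. With median-of-ratios scaling, which divides each sample by its median ratio to the mean profile, added here after the data were seen, TGQ replicate 3 remained the lowest for all 3 genes, against 35.3% of all genes tested, and WT replicate 2 was the lowest for 1 of the 3.

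The rest of the cadherin family was mostly higher in TGQ as well, in every case by a smaller ratio of group means. On the log2(value + 1) scale, which understates the low gene cdh-3, cdh-12 and cdh-1 changed by more than cdh-3. The family list held 10 further names, of which cdh-11 matched no annotated symbol and cdh-9 was not analysed here. Of the other 8, fmi-1 did not reach the filter on low values. Of the 7 tested, 6 rose in TGQ and 0 fell, against 45.6% of all genes tested called higher, and their median log2(value + 1) change was 0.53, against -0.22 over all genes tested. With the authors' scaling, taken from the gap between their fold changes and the ratios of means, 4 of the 7 were called higher. With median-of-ratios scaling or quantile normalization all 7 were. Over all 5540 genes tested, 2296, 2544 and 2555 were called higher with these scalings, in that order.

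The largest rises of the other family members were those of cdh-12 and cdh-1. Gene cdh-12, annotated with cadherin domains and no known role given here, had values of 27.89, 21.9 and 17.07 in TGQ replicates 1 to 3, against 8.36, 7.13 and 9.65 in WT replicates 1 to 3. Its ratio of means was 2.66 and its log2 change 1.29 (0.18 SE, with adjusted p = 0.000269, limma). Gene cdh-1, related to Dachsous, the binding partner of Fat in Drosophila, had 3.7, 4.06 and 3.51 in TGQ, against 1.63, 0.98 and 1.26 in WT. Its ratio was 2.91 and its log2 change 1.06 (0.14 SE, with adjusted p = 0.000192, limma). For both genes the groups did not overlap, which held with TGQ higher for 44% of all genes tested.

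The remaining members showed smaller differences. The Fat-related cdh-4, needed for axon fasciculation, had means of 1.93 ± 0.284 in TGQ and 1.04 ± 0.366 in WT (SD, n = 3 each; adjusted p = 0.0107, limma). The classical cadherin hmr-1 averaged 33.3 ± 3.85 in TGQ and 22.3 ± 4.004 in WT (SD, n = 3 each), a log2 change of 0.57 (adjusted p = 0.00724, limma). The calsyntenin gene casy-1, which acts in learning, averaged 32 ± 1.74 in TGQ and 24.6 ± 0.612 in WT (SD, n = 3 each; adjusted p = 0.0101, limma). That call was lost with the authors' scaling, and over all alternatives its adjusted p ran from 0.00101 to 0.0537. Gene cdh-5 averaged 3.96 ± 0.639 in TGQ and 2.56 ± 0.631 in WT (SD, n = 3 each; adjusted p = 0.0219, limma), a call lost with the authors' scaling and without TGQ replicate 1, TGQ replicate 2 or WT replicate 2 (adjusted p over all alternatives from 0.00523 to 0.074). Gene cdh-8 averaged 5.38 ± 0.923 in TGQ and 4.22 ± 0.677 in WT and was not called (adjusted p = 0.105, limma). In the authors' deposited table its log2 fold change was 0.78, against 0.35 for the log2 ratio of means, a gap unlike the median one of -0.13 between these measures. The Flamingo homolog fmi-1, a guide of axons, had 1.16, 1.14 and 0.88 in TGQ replicates 1 to 3 against 0.71, 0.38 and 0.51 in WT replicates 1 to 3, and was not tested. TGQ replicate 3 was the lowest TGQ sample for all 11 cadherins of the table, and WT replicate 2 the lowest WT sample for 10 of them, with cdh-7 as the exception. Over all genes tested these shares were 51% and 56.4%. After median-of-ratios scaling the counts were 9 and 8 of 11, against 35.3% and 37% of all genes tested.

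**Figure D2:**
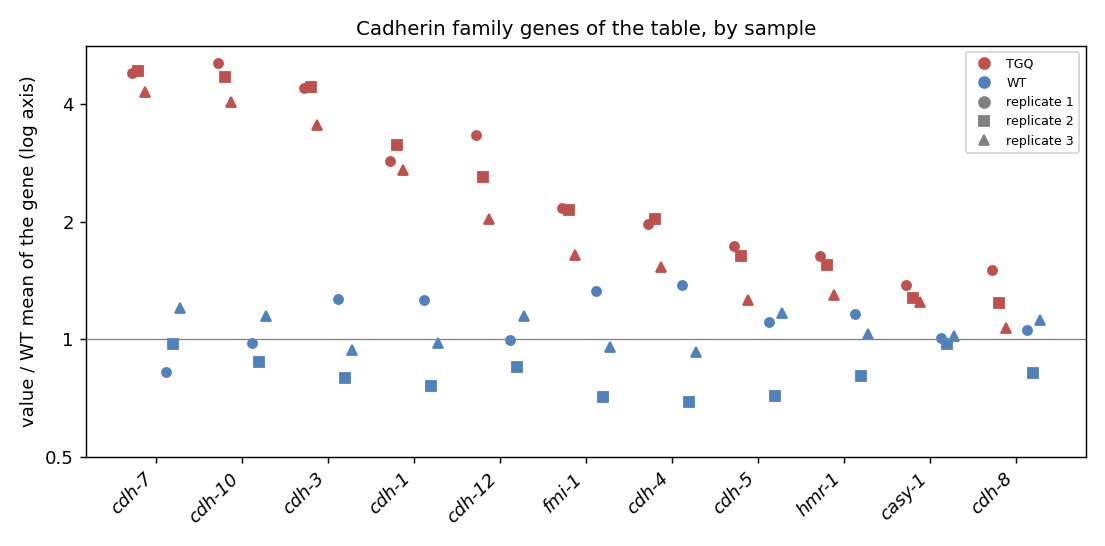
Values of the 11 cadherin genes of the table in each TGQ sample (red) and WT sample (blue), each divided by the gene's WT mean, on a log axis; marker shapes give the replicate number. The genes are in order of their TGQ mean: cdh-7, cdh-10 and cdh-3 stand at or above 3.54 times the WT mean in every TGQ sample, and cdh-8 overlaps with WT.

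Cadherin transcripts are long, and long transcripts were mostly higher in TGQ. Of the 331 genes tested whose longest annotated transcript has 4000 bases or more, 89.7% were called higher and 3.93% lower, with a median log2(value + 1) change of 0.59. Of the 5206 shorter genes, 42.8% were called higher and 47.2% lower, with a median of -0.27. The same long genes had TGQ replicate 3 as their lowest TGQ sample in 85.5% of cases and WT replicate 2 as their lowest WT sample in 92.4%. Of the 7 other cadherins tested, 6 were in this long class and 5 of those 6 were called higher, a share near that of long genes in general. Within the long class, 4 genes had a larger ratio of means than cdh-7, 5 a larger one than cdh-10 and 6 a larger one than cdh-3. The part of transcript length in the levels of the cadherins was not tested. The length classes were chosen after the data were seen.

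**Figure D3:**
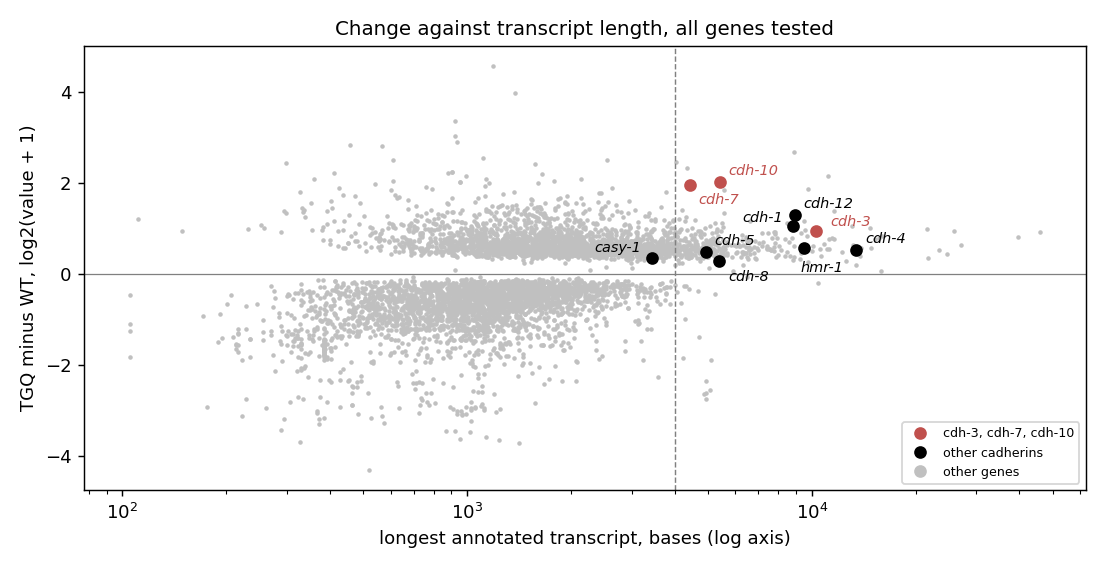
TGQ minus WT difference in log2(value + 1) against the length in bases of the longest annotated transcript (log axis) for the genes tested, with cdh-3, cdh-7 and cdh-10 in red and the other cadherins in black; the dashed line is at 4000 bases. Right of the line 89.7% of genes were called higher in TGQ, and cdh-7 and cdh-10 lie near the upper edge of the points there.

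Catenins and other proteins of the apical junction changed in the direction of the cadherins, by modest amounts. Of 33 listed genes 18 were tested, and 16 rose, 1 fell and 1 was not called, with a median log2 change of 0.56. Over all genes tested, 45.6% were called higher. The table holds only genes that passed the authors' test, so this list and those that follow are seen in part. The list was written with earlier results of these data known, and in it the α- and β-catenin genes of the adherens junction, hmp-1 and hmp-2, were not analysed here. The p120 catenin gene jac-1, whose product binds HMR-1, had 13.51, 12.88 and 11.25 in TGQ against 9.32, 7.11 and 9.22 in WT, 1.47 times as high (adjusted p = 0.00854, limma). The Wnt-pathway β-catenin gene bar-1 was 1.45 times as high (adjusted p = 0.00999), and its relative wrm-1 had 8.83, 8.6 and 7.48 in TGQ against 12.42, 8.16 and 8.9 in WT and was not called (adjusted p = 0.251, limma).

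Scaffold proteins of the epithelial junction rose in similar measure. The Discs large gene dlg-1 was 1.53 times as high in TGQ, the Scribble-like let-413 1.45 times, the ZO-1 relative zoo-1 1.66 times, its partner vab-9 1.49 times, magi-1 1.53 times and the Crumbs gene crb-1 1.67 times. The cell polarity kinase gene pkc-3 (1.32 times) and the L1-type adhesion gene sax-7 (1.29 times) were called as well. Their calls were lost with the authors' scaling, that of pkc-3 also without TGQ replicate 2, and that of sax-7 also without TGQ replicates 1 or 2 or WT replicates 2 or 3. The largest rise was that of sma-1, the βH-spectrin gene of the apical membrane, with 19.14, 17.82 and 13.12 in TGQ against 9.61, 5.82 and 6.99 in WT, 2.23 times as high (log2 change 1.07, adjusted p = 0.00103, limma). The α-spectrin gene spc-1, the β-spectrin gene unc-70 and the spectraplakin gene vab-10, which holds epidermis to muscle, were 1.84, 1.71 and 1.69 times as high. Claudin-like genes went both ways: clc-2 and clc-5 were 2.02 and 1.94 times as high, while clc-1 fell, with 22.8, 26.63 and 26.51 in TGQ against 34.24, 34.9 and 34.92 in WT (log2 change -0.44, adjusted p = 0.0052, limma). Of the 18 genes, 7 were long, and all 7 of those rose, against 89.7% of all long genes tested.

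Other adhesion and guidance receptors, mostly of neurons, showed the same direction. Of 40 listed genes 28 were tested, and 27 rose, 1 fell and 0 were not called (median log2 change 0.59). With the authors' scaling 24 rose and 1 fell, against 2296 called higher and 2874 lower of all 5540 genes tested. The share called higher over all genes tested was 45.6% in the main fit. The immunoglobulin-domain genes ncam-1, igcm-1 and igdb-1 had the highest changes, of 1.26, 0.95 and 0.93. For ncam-1 the values were 9.34, 11.35 and 9.27 in TGQ and 4.04, 3.09 and 3.67 in WT (adjusted p = 8.08e-05, limma). The only fall was that of dyf-7, which anchors the tips of sensory dendrites, with a log2 change of -0.5 (adjusted p = 0.00716, limma). None of these 28 genes reached the change of cdh-7 or cdh-10. Transcripts of 4000 bases or more belonged to 10 of the 28, and all 10 rose, against 89.7% of all long genes tested. Among the 18 shorter genes 17 rose, against 42.8% of all shorter genes tested.

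Genes of the anchor cell and the basement membrane, where cdh-3 has its best known setting, mostly rose as well. Of 34 listed genes 20 were tested, and 15 rose, 1 fell and 4 were not called (median 0.6), against 45.6% of all genes tested called higher. With the authors' scaling 14 rose and 3 fell, against 2296 called higher and 2874 lower of all 5540 genes tested. The matrix metalloprotease gene zmp-2 had the largest rise, with 22.7, 21.33 and 18.58 in TGQ against 5.45, 7.47 and 6.83 in WT, a log2 change of 1.53 (adjusted p = 2.99e-05, limma). The peroxidasin gene pxn-2 was 3.11 times as high and the laminin α gene lam-3, expressed at low values of 3.52, 3.62 and 2.64 in TGQ against 1, 0.74 and 0.92 in WT, 3.68 times. The hemicentin gene him-4, which like cdh-3 carries the term for basement membrane disassembly and is the only other gene of the table that does, had 31.57, 34.34 and 34.15 in TGQ and 30.89, 32.12 and 32.5 in WT and was not called (adjusted p = 0.552, limma). The log2 fold change of him-4 in the authors' deposited table was 0.61, against 0.07 for the log2 ratio of means, and the cause of this gap was not tested. The EGF-like ligand gene lin-3, made by the anchor cell, fell by 0.42 on the log2 scale (adjusted p = 0.0247, limma). That call was lost without TGQ replicate 2, TGQ replicate 3 or WT replicate 1, with adjusted p from 0.00907 to 0.0929 over all alternatives. The anchor cell genes fos-1 and zmp-1 were not analysed here. Transcripts of 4000 bases or more belonged to 8 of the 20 genes tested, and 6 of those 8 rose, against 89.7% of all long genes tested. Among the 12 shorter genes 9 rose, against 42.8% of all shorter genes tested.

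Of 35 listed vulval genes 13 were tested, and 12 rose and 1 fell (median 0.69), against 45.6% of all genes tested called higher. The nuclear receptor gene nhr-113 had 6.29, 7.13 and 8.58 in TGQ against 0.62, 1.42 and 1.51 in WT, a log2 change of 1.95 (adjusted p = 3.62e-05, limma). Next came nhr-25, a nuclear receptor of epidermis and vulva, with 1.22, and the cell fusion gene aff-1 with 1.2. The Notch ligand gene apx-1 fell by 0.8 on the log2 scale (adjusted p = 0.00224, limma). Of the 34 genes on the epidermis and seam list 18 were tested. Of these 17 rose and 1 fell, with a median of 0.92, the highest of the lists described so far. The hedgehog-related genes wrt-10 and grd-10 were 3.21 and 3.32 times as high and the nuclear receptor gene nhr-73 was 5.55 times as high. The fall was that of grd-5, with means of 427.8 ± 4.41 in TGQ and 609.4 ± 19.9 in WT (SD, n = 3 each; log2 change -0.51, adjusted p = 0.000313, limma), a call lost after quantile normalization. Most genes of these lists are short: 12 of the 13 vulval and 16 of the 18 epidermal genes tested lay under 4000 bases, of which 11 and 15 rose. Over all genes tested under 4000 bases, 42.8% were called higher.

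**Figure D4:**
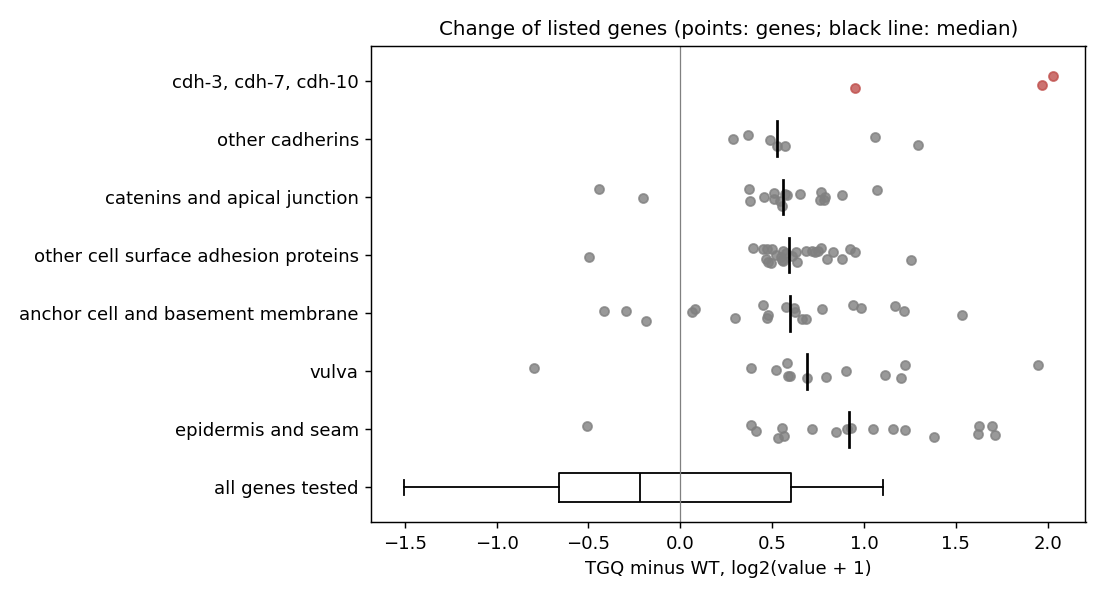
TGQ minus WT difference in log2(value + 1) of each tested gene in the lists, with cdh-3, cdh-7 and cdh-10 in red at the top and the median of each other list as a black line; the box at the bottom shows the quartiles and the 5th to 95th percentiles of all genes tested. List medians lie between 0.53 and 0.92, against -0.22 for all genes, and cdh-7 and cdh-10 lie right of every gene of the lists drawn. The cell type lists and the moult and stage list, where fbn-1 changed by 2.68, are not drawn.

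Genes with the profile closest to each cadherin were sought over the 6 samples among 5494 genes with a mean value of at least 1, by the root mean square distance of their centred log2(value + 1) values. The nearest gene to cdh-10 was mlt-11, a protease inhibitor gene of the moult, at a distance of 0.0845, with 89.38, 83.41 and 67.37 in TGQ against 20.1, 18.39 and 24.54 in WT. Next to it were cdh-7 (0.113), C09F9.2 (0.127), K04H4.5 (0.135) and noah-1 (0.142), a gene of the apical extracellular matrix that covers the epidermis. Closest to cdh-7 were F07B7.2 and W09B7.2, both at 0.088 and with identical values in every sample, so they may not have been measured apart. They were followed by noah-1 (0.106), with 148.92, 129.76 and 125.58 in TGQ against 33.29, 35.75 and 44.79 in WT, and then by cdh-10 and C09F9.2 (0.114). Gene cdh-10 was the 4th nearest of 5494 genes to cdh-7, while cdh-7 and cdh-10 ranked 2497 and 2527 by nearness to cdh-3. The 3 genes were picked with these values known, and the distance mostly follows the size of the group difference. These ranks are therefore a description and no evidence of a link between the genes.

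The profile of cdh-3 was nearest to rol-3 (0.0366), a receptor kinase gene of seam cells and body shape, which had 3.75, 3.66 and 3.01 in TGQ against 1.63, 1.12 and 1.31 in WT. Next were F27D4.6 (0.0578), acdh-9 (0.0592), alh-9 (0.0619) and hbl-1 (0.0652), a regulator of larval timing. These distances depend on the added constant. The ratio of means was 2.57 for rol-3, against 4.13 for cdh-3. With 0.1 in place of 1, a choice made after the data were seen, the 5 nearest genes to cdh-3 were lam-3, glb-6, tyr-1, ugt-16 and Y7A9A.79, none of them among the 5 above. The distance of cdh-3 to cdh-10 was then 0.251 in place of 0.55. The distance of cdh-7 to cdh-10 was 0.13 in place of 0.113, and mlt-11, C09F9.2 and cdh-7 stayed among the 5 nearest to cdh-10, with ptr-10 at the head (0.111).

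The nearest protein-coding genes on the chromosome, where in the table, were higher in TGQ by smaller ratios. For each cadherin the nearest gene on the other side was not in the table. Over all genes tested, 45.6% were called higher. On one side of cdh-10, C45G7.4 ends 36 bases from the end of cdh-10 on the opposite strand. It had 3.12, 3.27 and 3.04 in TGQ against 0.78, 0.8 and 1.85 in WT (log2 change 0.99, adjusted p = 0.0012, limma). The sources used here do not say whether reads were counted by strand, and reads running past either end cannot be told apart. The neighbour pcp-1, 4455 bases from cdh-3, was 1.81 times as high, and nhr-61, 24686 bases from cdh-7, was 1.78 times as high (adjusted p = 0.000275 and 0.000836, limma).

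The tested markers of cell types also differed between the groups. All 26 sperm markers tested, of 29 listed, fell, against 44.6% of all genes tested called lower. Their sums were 2916 to 3553 over the list in TGQ samples and 8781 to 10800 in WT samples. Most of the 26 belong to the msp gene family, each with a longest transcript of 384 bases. Whether reads of that family were counted apart is not stated in the sources used here. Of 23 oocyte markers tested, of 24 listed, 22 fell and 0 rose, with sums of 388.4 to 562.9 in TGQ and 1532 to 2077 in WT. Of 26 listed neuron markers only 7 were tested, and of 16 muscle markers only 4. The table holds only genes that passed the authors' test, so these lists are seen in part. All 7 neuron markers tested rose, against 45.6% of all genes tested called higher. Their sums were 80.8 to 82.7 in TGQ and 44.9 to 56.7 in WT. All 4 muscle markers tested rose, with sums of 228.6 to 275.3 in TGQ and 133.6 to 209.4 in WT. These 4 all have transcripts of 4000 bases or more, as do 4 of the 7 neuron markers. Genes tested of that length were called higher in 89.7% of cases. Of 8 pharynx markers tested (16 listed) 6 rose and 2 fell (355.2 to 420.1 in TGQ, 324.3 to 354.9 in WT). Of 5 intestine markers tested (20 listed) 3 rose and 2 fell (500.9 to 528.1 in TGQ, 516.2 to 587.8 in WT). No marker gene in the table was at 0 in every sample. In whole animals, fewer cells of a type and less RNA per cell cannot be told apart. The part of sample makeup in the cadherin levels was not tested. The mean sums in TGQ were 1.61 times those in WT for the neuron list and 1.52 times for the muscle list. For the pharynx, intestine, sperm and oocyte lists they were 1.12, 0.929, 0.329 and 0.262 times. Of 20 moult and stage markers tested, of 27 listed, 16 rose and 3 fell, with a median log2 change of 0.99. Their sum, led by the cuticle collagen gene dpy-13, was nonetheless 4427 to 4841 in TGQ and 4793 to 5782 in WT. The log2 change ran from -3.01 for col-19 (means of 97.5 in TGQ and 772.1 in WT) to 2.68 for fbn-1 (21.5 and 2.5). Whether the groups differed in developmental timing was not tested, and timing cannot be told apart from strain here.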

How the data were processed

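Polyadenylated RNA of whole L4 worms was sequenced as paired 150-base reads from TruSeq libraries, per the labels. Per the submitters' processing notes, TopHat2 and RSEM were used, with no version or role stated. The sources used here do not name the build, annotation or statistical test. The authors deposited 1 table of 5792 genes: an expression signal per sample with an unnamed unit, its group mean, a ratio of TGQ over WT, the log2 of it, and a p-value with an adjusted one. Depth is therefore unknown.

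Samples were grouped by title. Genes that reached 1 in 3 or more of the 6 samples were tested with limma 3.58.1 (R 4.3.3) on log2(value + 1), group as the only term, eBayes with trend and robust options, and Benjamini-Hochberg adjustment over the 5540 genes tested. A call is an adjusted p under 0.05. Such fold changes understate those of low genes. Ratios are of group means. The main test was kept as designed for a table without counts. On simulated data with the spreads of this comparison (5540 genes, 200 changed), 83.6% of genes changed by 1 and 98% of those changed by 2 on the log2 scale were recovered, and 4.29% of calls were false. Those data had independent noise and few changed genes, while 90.2% of genes were called here. The shares therefore do not carry over to this comparison, and recovery of changes under 1 is not given.

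Named genes are the 3 cadherins, all cadherin family and junction genes in the table, the 3 highest and 3 lowest called genes of the other lists, the 5 nearest profiles, chromosomal neighbours, and the highest gene of a marker list. Outside this rule, him-4, col-19 and fbn-1 were named after their values were seen. The genes hmp-1, hmp-2, fos-1 and zmp-1, also outside it, are not among the 5792 genes of the table, so no values of theirs were seen. Members and lists were chosen with earlier results of these data known. Alternatives were a pseudocount of 0.1, no filter, median-of-ratios scaling, the authors' scaling (TGQ shifted by -0.13, the median gap between their log2 fold change and the log2 ratio of means), quantile normalization, a replicate block, and leaving out each sample. Transcript lengths were found for 99.9% of genes tested.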

Additional observations from a re-analysis of the deposited data

How the results depend on the processing

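The values of cdh-3, cdh-7 and cdh-10 stayed higher in TGQ under all 12 alternatives. With a pseudocount of 0.1 the log2 change was 1.83 for cdh-3 and 2.21 for cdh-7, the only changes larger than the spread between replicates. Leaving out single samples gave 0.91 to 1.02 for cdh-3, 1.87 to 2.08 for cdh-7 and 1.95 to 2.12 for cdh-10. The scaling moved the median of all genes from -0.22 to -0.35 (authors' scaling), -0.12 (median of ratios) or -0.1 (quantile), while cdh-10 stayed between 2.18 and 2.25 above that median. The replicate numbers were not shown to pair the samples: deviations of same-numbered samples correlated at 0.247, -0.0115 and 0.16. With the replicate block 5137 genes were called, against 4998 without it, and the log2 changes of the 3 genes were unchanged. Counts of called genes per list stayed within 1.5 times under every alternative. The cadherin count was lowest at 4 of 7 with the authors' scaling, under which 2296 of all 5540 genes tested were called higher. Over 55 other named genes and all alternatives, 0 called genes changed direction, 6 lost their call under some alternative, and cdh-8 gained one with median-of-ratios scaling and quantile normalization. Low values limit cdh-3 most, since its WT values of 0.34 to 0.54 carry 2 decimals and an unknown number of reads.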
